A study of Mus musculus with 4 samples.

Results

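The longest stretches of open chromatin in B16-F10 cells, a mouse melanoma line, were examined in cells labelled Ssbp4 knockout and wild type. The regions were chosen by length: calls of 4 ATAC-seq libraries on chromosomes 1 to 19, X and Y were merged where they overlapped by at least 1 bp, and a region was kept when every library had a single call of at least 2500 bp in it. Of 72251 merged regions, 44000 were called in all 4 libraries, and 281 of these (0.639%) met the rule. ATAC-seq inserts adapters into accessible DNA with the Tn5 transposase, and a call is a stretch in which the read pileup exceeds the background.

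The cells labelled knockout (2 libraries) had been electroporated with Cas9 nuclease and a mixture of sgRNAs against Ssbp4. The cells labelled wild type (2 libraries) belong to the same line, and a control sgRNA against an intergenic site on chromosome 2 is named in the protocol. All libraries were made from cryopreserved cells. The labels do not say whether clones or pools of edited cells were used, or that replicates came from separate cultures, so the spread between replicates may be technical. Neither the knockout of Ssbp4 nor the melanocyte identity of the line was checked here, because gene positions in the files' genome build, GRCm39, were not used.

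In mammalian cells, wide open stretches are typically found over active CpG-island promoters, where a nucleosome-depleted start site is flanked by further accessible DNA, and over clusters of enhancers. Sequence that a genome carries in more copies than its assembly can also give long calls, since reads from several copies pile up in a single place. SSBP proteins bind the cofactor LDB1, which bridges transcription factors at enhancers and promoters. The genes under the regions are not named here, and regions are given by GRCm39 position alone.

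The broad regions were small in number but took a larger share of the open bases. They held 834 and 831 kb in knockout replicates 1 and 2 and 845 and 847 kb in wild-type replicates 1 and 2. That was 1.62% and 1.54% of all called bases in the knockout against 1.49% and 1.47% in wild type. The full lists held 50068 and 57698 calls for the knockout replicates and 59215 and 63080 for the wild-type replicates. The median longest call of the broad regions was 2836 and 2837 bp in the knockout and 2868 and 2878 bp in wild type, against 1025, 999, 1042 and 1024 bp in the same order over all regions called in every library. These lengths chose the regions and are a description.

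**Figure D1:**
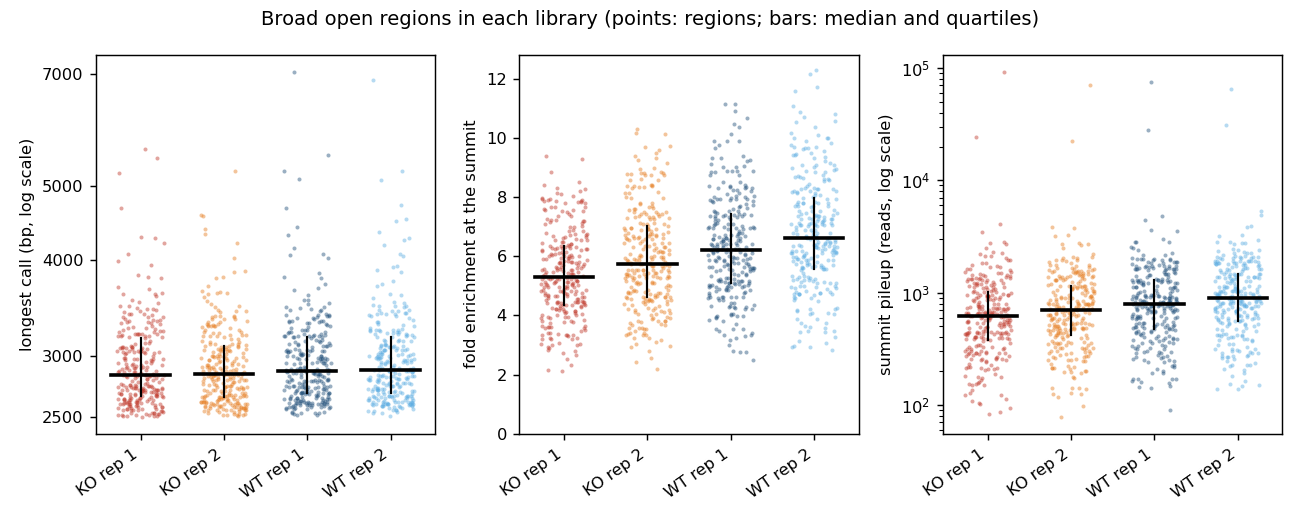
Longest call in bp (left, log axis), fold enrichment at the summit (middle) and summit pileup in reads (right, log axis) of the 281 broad regions in knockout (KO) and wild-type (WT) replicates. Each point is a region, the horizontal bar is the median and the vertical bar spans the quartiles; lengths lie close together in all libraries, while the medians of fold and pileup are lower in both knockout libraries.

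Call edges lay close together. Of the 281 regions, 229 had longest calls within 10% of each other over the 4 libraries, and 5 differed by more than 1.5 times. Starts of the longest calls lay a median of 25 bp apart between the knockout replicates and 14 bp between the wild-type replicates, and 32.5 bp apart across genotypes. The ends gave 26, 15 and 28 bp. In the other regions called in all libraries, starts lay 43 bp apart between knockout replicates, 30 bp between wild-type replicates and 44.5 bp across genotypes. The rule kept only regions long in every library and so left regions shortened or cut in a library among the others, and these distances are a description.

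A minority of the regions was much longer than the threshold. In 79 of the 281 every library had a call of 3000 bp or more, and in 5 every library reached 4000 bp. The 12 longest, ordered by their shortest call, are described first.

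The longest lay at chr17:40154007-40159247, with calls of 5201 and 5236 bp in the knockout and 5224 and 5236 bp in wild type. Its summit pileup was 24148 and 22474 reads in the knockout and 28079 and 30885 reads in wild type. The local background there was 465 and 432 times the genome-wide background in the knockout and 517 and 547 times in wild type. Such values set this region apart from nearly all others. The fold enrichment, which divides the pileup by the local background, was only 3.02 and 2.98 in the knockout against 3.70 and 3.73 in wild type.

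The fourth longest, chr1:24650814-24655163, had the highest pileup of all, 92448 and 71188 reads in the knockout against 74893 and 65466 in wild type, with calls of 4292, 4323, 4314 and 4350 bp in the same order. The genotypes overlapped in pileup. The local background reached 1663 and 1199 times the genome-wide level in the knockout and 1440 and 1153 times in wild type. At chr9:124194476-124198204 it was 49.8 and 47.5 times in the knockout and 58.2 and 61.9 times in wild type, and the pileup was 4106 and 3745 reads against 4811 and 5284 reads. These 3 were the only broad regions with a local background of at least 40 times the genome-wide level in every library (1.07%), against 11 of the 43719 other regions called in all libraries (0.0252%).

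The second longest, chr4:3079875-3086924, varied most in length among the 12, with 5596 and 4579 bp in the knockout and 7050 and 6874 bp in wild type. In knockout replicate 2 it was called as 2 pieces. The region at chr17:71155802-71160518 had 4687 and 4576 bp in the knockout and 4687 and 4717 bp in wild type, and that at chr7:115629417-115633836 had 4207 and 4397 bp against 4420 and 4251 bp. Replicates and genotypes thus gave nearly the same extent at both. Their folds were 3.37 and 3.57 (knockout) against 3.91 and 4.05 (wild type) on chromosome 17, and 4.11 and 4.59 against 4.23 and 4.75 on chromosome 7, where the genotypes overlapped.

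Among the other 7, chr19:3371563-3375651 had calls of 3997 and 4026 bp in the knockout and 4058 and 4076 bp in wild type. The region chr5:57871518-57875880 was longer in the knockout, at 4279 and 4215 bp against 4149 and 3888 bp. At chr8:85388237-85392282 the calls were 3821 and 3875 bp in the knockout and 4025 and 4046 bp in wild type. The genotypes did not overlap in length in these 3, nor at chr17:34337838-34341810 and chr15:76089324-76093122 below. Of these regions only chr5:57871518-57875880 was longer in the knockout. The region chr15:102008566-102012842 had 3794 and 3806 bp in the knockout against 3806 and 4277 bp in wild type. The region chr17:34337838-34341810 had 3808 and 3787 bp against 3851 and 3920 bp, with folds of 4.66 and 5.40 in the knockout against 4.89 and 5.13 in wild type. The last 2, chr1:178354811-178358539 and chr15:76089324-76093122, had 3686 and 3706 bp against 3719 and 3706 bp, and 3611 and 3629 bp against 3662 and 3753 bp. On chromosome 1 the folds were 4.82 and 5.11 in the knockout against 4.68 and 4.94 in wild type, and overlapped.

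At the lower end the rule divides regions that are nearly alike. Just inside it, chr14:51300528-51303120 had 2500 and 2566 bp in the knockout and 2593 and 2592 bp in wild type. The other 4 closest to the threshold, on chromosomes 8, 3, 4 and 11, had shortest calls of 2502, 2505, 2506 and 2507 bp. Just outside it, chr10:12981806-12984503 had 2654 and 2499 bp in the knockout and 2524 and 2552 bp in wild type, and chr17:15718017-15720571 fell short by a single wild-type call of 2499 bp. The next 3, on chromosomes 2, 6 and 6, had shortest calls of 2495, 2494 and 2489 bp.

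Breadth was largely shared between the genotypes. Of 341 regions that reached 2500 bp in both knockout libraries, 281 (82.4%, Wilson 95% interval 78.0 to 86.1) also reached it in both wild-type libraries, 36 in 1 of them and 24 in neither. Of 412 that reached it in both wild-type libraries, the same 281 (68.2%, 63.6 to 72.5) reached it in both knockout libraries, 69 in 1 and 62 in neither. Lengths set the rule, so these shares are a description. The intervals cover counting error only, and regions are not replicates. Regions broad in the knockout alone were 0.0545% of the 44000, and regions broad in wild type alone were 0.141%. The exact permutation test, two-sided, cannot go below 0.333 with 2 libraries against 2, and no other test across libraries was run.

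Single libraries weighed on these counts. Knockout replicate 1 had the fewest calls but the most of 2500 bp or more, 566 against 414 in knockout replicate 2, 528 in wild-type replicate 1 and 508 in wild-type replicate 2. Its shortest call was also the longest of the 4 lists, 380 bp against 338, 337 and 307 bp. The part of that difference in the calls over 2500 bp was not tested. In 142 regions it alone reached 2500 bp, against 18, 50 and 61 regions for knockout replicate 2, wild-type replicate 1 and wild-type replicate 2. Regions broad in the knockout alone numbered 42 without knockout replicate 1, 166 without knockout replicate 2, 47 without wild-type replicate 1 and 38 without wild-type replicate 2. Regions broad in wild type alone numbered 96, 97, 123 and 112 under the same omissions, so with knockout replicate 2 left out the count for the knockout was the higher one.

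**Figure D2:**
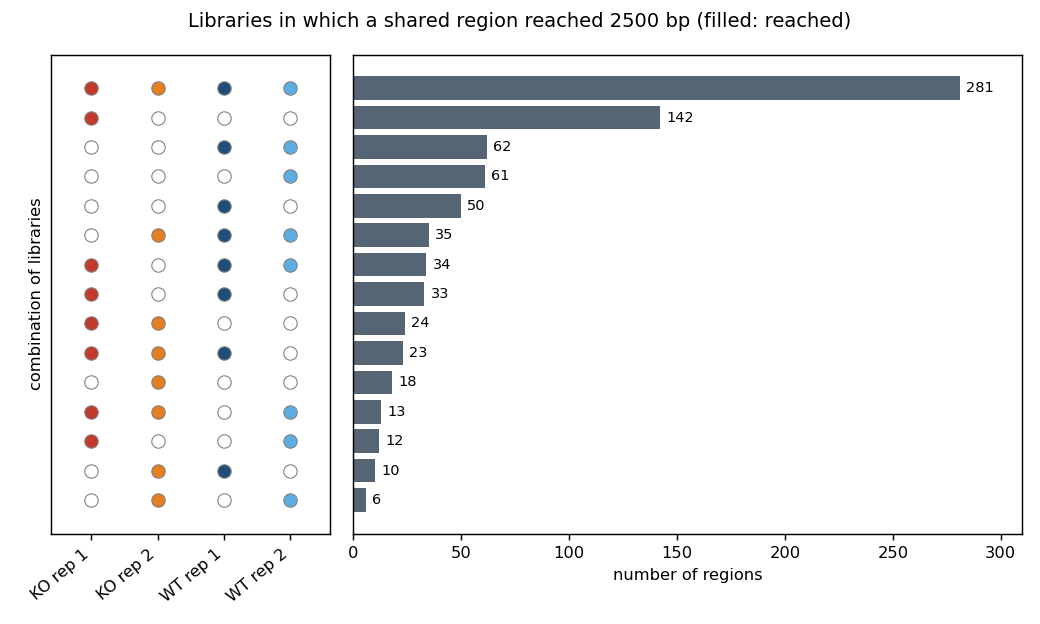
Number of regions (bars) for each combination of libraries in which a region called in all 4 libraries reached 2500 bp, with filled circles for the libraries that reached it (KO, knockout; WT, wild type). The 281 regions broad in every library form the largest class, followed by 142 regions broad in knockout replicate 1 alone; 24 were broad in both knockout libraries alone and 62 in both wild-type libraries alone.

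Many of the regions that were broad in a single genotype were cut in pieces in the other. Of the 24 regions broad in the knockout alone, 0 and 0 were called as 2 or more pieces in knockout replicates 1 and 2, against 13 and 14 in wild-type replicates 1 and 2, with 12 in both. Of the 62 regions broad in wild type alone, 25 and 29 were in pieces in the knockout, with 22 in both, against 0 and 2 in wild type. Others were shorter without a break: 9 of the 24 were a single call in both wild-type libraries, and 30 of the 62 were a single call in both knockout libraries.

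Of the regions broad in the knockout alone, chr15:95782721-95785832 differed most in length and had single calls of 3045 and 3100 bp in the knockout against longest pieces of 1245 and 1273 bp in wild type. The region chr3:94517309-94520509 had 2990 and 3147 bp against 1336 and 1220 bp, and chr8:47695232-47698901 had 3641 and 3398 bp against 1766 and 1738 bp. The regions chr8:122674494-122677522 and chr8:71204877-71207916 had 2904 and 3003 bp against 1351 and 1358 bp, and 2971 and 2942 bp against 1337 and 1401 bp. All 5 were in 2 pieces in both wild-type libraries and in 1 piece in both knockout libraries. Their folds were lower in the knockout although the calls were longer, for example 8.03 and 8.73 against 10.1 and 11.4 at chr8:122674494-122677522. The sixth, chr11:87317272-87320480, was a single call in every library, of 2514 and 2958 bp in the knockout and 1145 and 1202 bp in wild type, with folds of 3.04 and 2.91 against 5.21 and 5.52.

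Of the regions broad in wild type alone, the largest difference in length was at chr15:76326425-76329524, with calls of 630 and 592 bp in the knockout against 2769 and 2913 bp in wild type. Its folds were 2.11 and 2.03 in the knockout against 2.34 and 2.76 in wild type. The region chr13:13530262-13533324 had 802 and 909 bp in the knockout against 3002 and 3018 bp in wild type, again at folds under 3. Both regions thus had low folds in every library. At chr2:75498583-75502618 the calls were 1284 and 1255 bp in the knockout against 3476 and 2912 bp, and at chr14:106133434-106136811 they were 1461 and 1479 bp against 3318 and 3313 bp. At chr15:36792007-36795009 they were 1276 and 1255 bp against 2965 and 2935 bp, and at chr7:18826987-18830002 they were 1252 and 1294 bp against 3016 and 2847 bp. In the last 2 the folds of the genotypes overlapped, at 5.61 and 6.15 against 5.64 and 6.03 and at 7.31 and 7.46 against 7.56 and 7.31. Both knockout libraries were in 2 pieces there, and also at chr2:75498583-75502618 and chr14:106133434-106136811. Wild-type replicate 2 was in 2 pieces at chr2:75498583-75502618 as well, and knockout replicate 1 at chr13:13530262-13533324.

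The broad regions were strong calls with many reads, but their fold enrichment was moderate. Ranked by the p-value within each list, their median percentile was 81.2 and 82.3 in the knockout against 83.3 and 83.1 in wild type. Of them, 69.4%, 72.2%, 70.8% and 74.4% lay above the 75th percentile, against 28.4%, 32.7%, 33.5% and 35.7% of all regions called in every library. At the weak end, 12 and 7 of the broad regions lay below the 50th percentile in the knockout lists and 8 and 6 in the wild-type lists. The share of all regions below it was not computed. The median summit pileup was 615 and 703 reads in the knockout and 797 and 889 reads in wild type, against 138, 172, 196 and 229 reads in the other regions called in all libraries. The lowest mean pileup was at chr3:80819184-80821943, with 87 and 79 reads in the knockout and 90 and 152 reads in wild type.

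The local background, the read level expected around a summit, was also high. It was recovered from the fold and p-value of the same calls, and none of the libraries was a control. Reads of a long call may therefore count in its own background, and the size of that part was not tested. Its median was 6.75 and 6.93 times the genome-wide background in the knockout and 8.75 and 9.10 times in wild type, against 1.5, 1.58, 1.71 and 1.76 times in the other regions. In 273 of 281 (97.2%) it was at least 2 times the genome-wide background in every library, against 36.2% of the other regions. Fold divides the pileup by this background. The median fold was 5.29 and 5.73 in the knockout against 6.21 and 6.61 in wild type, while that of the other regions was 5.11 and 6.02 in the knockout against 7.46 and 8.30 in wild type.

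Fold enrichment at the broad regions was lower in the knockout, but by less than elsewhere. As a log2 ratio, knockout over wild type, its median was −0.19 (quartiles −0.29 and −0.12) over the 281 regions and −0.37 (quartiles −0.56 and −0.23) over the others, which correspond to 0.874 and 0.773 times. Both knockout folds lay below both wild-type folds in 200 of 281 regions (71.2%), against 84.1% of all 44000. Both lay above in 2 (0.712%), against 1.13%. The per-library medians of the broad regions did not overlap between the genotypes, and the exact permutation test over libraries, two-sided, gave p = 0.333, the smallest it can give.

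The pileup and the local background were also compared separately. Before scaling, both knockout pileups lay below both wild-type pileups in 220 broad regions (78.3%, against 64.8% of all) and above in 9 (3.20%, against 3.36%), with a median log2 ratio of −0.36 in the broad and −0.36 in the other regions. Pileups were then scaled so that each library had the same median level, relative to the mean of the libraries, over the 44000 regions. This scaling sets the typical region near 0. The median log2 ratio of the scaled pileup was 0.01 over the broad regions and 0.01 over the others, and the quartiles of the broad regions were −0.13 and 0.15. Both knockout libraries lay below both wild-type libraries in 78 broad regions (27.8%, against 30.7% of all) and above in 90 (32.0%, against 30.8%). Both counts were close to those of all regions. Medians taken within each library gave a larger difference: the median log2 pileup of the broad regions exceeded that of the others by 2.16 and 2.03 in the knockout and by 2.02 and 1.96 in wild type, without overlap and 0.10 more in the knockout (exact permutation test, two-sided, p = 0.333, the smallest it can give). The local background was left in unscaled reads. Its ratio belongs beside the unscaled pileup ratio of −0.36 and is not comparable with the scaled one. It had a median log2 ratio of −0.16 in the broad regions and 0.05 in the others. It was lower in both knockout libraries in 187 broad regions (66.5%, against 28.1% of all) and higher in 24 (8.54%, against 45.2%). Among the other regions above the genome-wide background in every library its median ratio was −0.06.

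From 500 bp on, the fold ratio came closer to 0 as regions got longer. With regions grouped by their shortest call, the median log2 ratio of the fold was −0.44 below 500 bp, −0.45 from 500 bp, −0.31 from 1000 bp, −0.24 from 1500 bp, −0.22 from 2000 bp and −0.19 from 2500 bp on. The ratio of the local background, in unscaled reads, was 0.22, 0.16, −0.07, −0.11, −0.13 and −0.16 in these classes. At the short end this is partly a constant of the libraries, because the local background cannot be lower than the genome-wide one, whose log2 ratio was 0.22. The local background was within 1% of that floor in every library in 48.2% of regions below 500 bp and in 23.7% of those from 500 bp, and in 0 of the 281 broad regions. Among regions above the floor in every library, a choice made after seeing the data, the fold ratio was −0.39, −0.40, −0.30, −0.24, −0.22 and −0.19 and the background ratio was 0.07, −0.00, −0.09, −0.12, −0.13 and −0.16 in the same classes. The ratio of the scaled pileup stayed between −0.00 and 0.08, with no order by length. The broad regions were the end of this series, and their quartiles of the fold ratio, −0.29 and −0.12, lay close to the −0.33 and −0.13 of the class from 2000 bp.

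**Figure D3:**
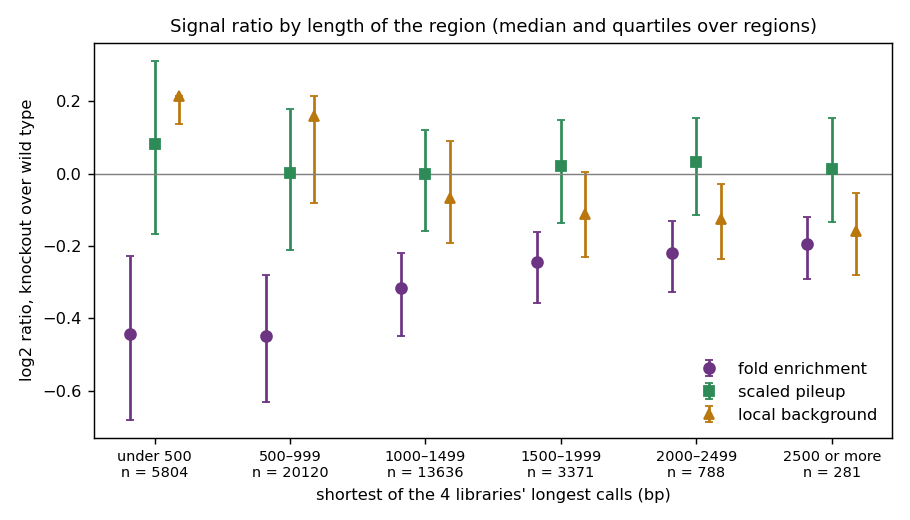
Log2 ratio of knockout over wild type for fold enrichment (circles), scaled pileup (squares) and local background (triangles), as median and quartiles over regions, against the length class of the region; n is the number of regions. The local background is in unscaled reads, so squares and triangles are not on the same scale. The median ratio of the fold is closer to 0 in the longer classes (−0.45 from 500 bp, −0.19 from 2500 bp) while that of the scaled pileup stays near 0 and that of the background drops to −0.16; in the 2 shortest classes many regions sit at the genome-wide background, whose ratio is 0.22.

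Lengths hardly differed between genotypes. The median log2 ratio of the longest call was −0.02 in the broad regions and −0.02 in the others. Both knockout calls were shorter than both wild-type calls in 116 broad regions (41.3%, against 30.2% of all) and longer in 35 (12.5%, against 15.1%). The rule bounds every length from below, so these counts are a description.

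Single broad regions departed from the common level. The lowest fold ratio was at chr5:103899946-103902607, with folds of 4.87 and 5.08 in the knockout against 7.87 and 9.31 in wild type (log2 ratio −0.78). Its pileup was 402 and 436 reads against 773 and 1039 reads, and its length was nearly the same, 2662 and 2585 bp against 2590 and 2594 bp. This region thus kept its extent with a lower summit. At chr8:124057967-124061019 the folds were 3.19 and 3.80 in the knockout against 4.96 and 6.32 in wild type (−0.69), and at chr11:78233909-78237299 they were 2.67 and 2.79 against 3.99 and 4.57 (−0.65).

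The next 3 had folds of 4.15 and 4.31 in the knockout against 6.52 and 6.55 in wild type at chr6:90304765-90307554 (−0.63), 2.99 and 3.24 against 4.62 and 4.73 at chr17:29463257-29466291 (−0.59), and 2.98 and 3.16 against 4.24 and 4.96 at chr5:144128370-144131380 (−0.58). The scaled pileup was also lower in all 6, with log2 ratios of −0.72, −0.49, −0.33, −0.17, −0.22 and −0.81 in the order given. The lowest scaled pileups of all broad regions were at chr19:58441520-58444539, with 105 and 117 reads in the knockout against 241 and 306 in wild type (−0.92), and at chr7:141086087-141088819, with 457 and 406 against 998 and 987 reads (−0.83). These 2 were chosen after their values were seen.

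Both knockout folds exceeded both wild-type folds in only 2 broad regions. At chr8:55573250-55576650 the folds were 3.32 and 3.37 in the knockout against 3.17 and 2.98 in wild type (log2 ratio 0.12), with pileups of 258 and 250 against 161 and 149 reads. At chr5:26020648-26023404 they were 3.93 and 3.80 against 3.54 and 3.64 (0.11), with pileups of 212 and 197 against 148 and 154 reads. In scaled pileup these 2 stood at 1.09 and 0.81. Their calls were of like length in all libraries, 3244, 3247, 3353 and 3401 bp in the first and 2659, 2732, 2740 and 2648 bp in the second, knockout libraries given first.

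The summit of a broad region was often off centre. In shorter regions the summit, the point of highest pileup, sat near the middle of the call: it lay between 40 and 60% of the length of the call in 42.6% and 44.3% of the other regions in the knockout and in 46.1% and 45.5% in wild type. In the broad regions it lay there in only 15.3% and 15.3% in the knockout against 16.4% and 17.8% in wild type. The outer parts of a call are those within 25% of its length from either end. They held the summit in 48.0% and 52.3% of broad regions in the knockout against 49.1% and 45.6% in wild type. The other regions gave 19%, 16.7%, 15.1% and 15.4%. The outer parts cover as much of the call as the rest, so summits placed evenly along it would give shares like those of the broad regions. Few broad summits were at an edge itself: the first and last 10% of the call each held 1.07% to 3.20% of them. In 102 broad regions (36.3%) the summit was in the outer parts in all 4 libraries, against 5.09% of the other regions. The shares in the outer parts overlapped between the genotypes.

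**Figure D4:**
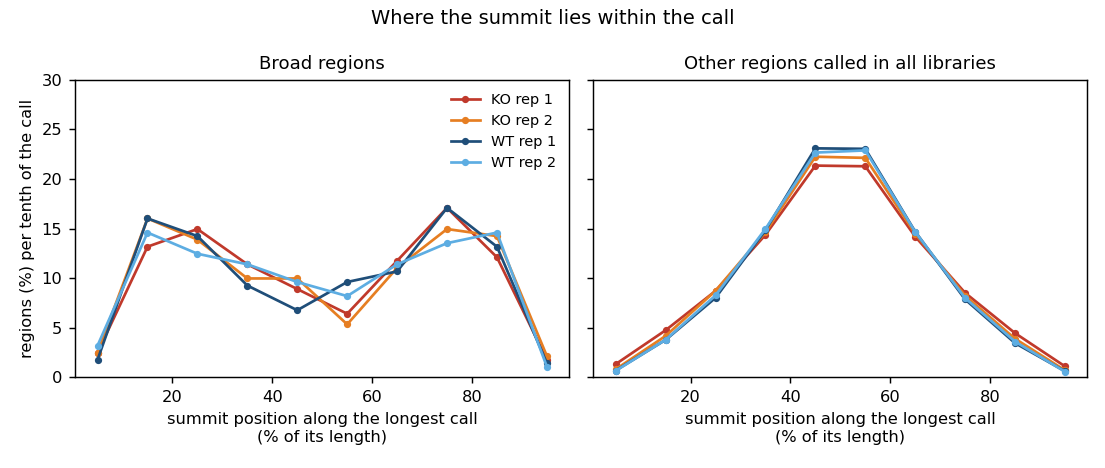
Share of regions whose summit lay in each of 10 equal bins of the longest call, from its start (0%) to its end (100%), for the 281 broad regions (left) and the 43719 other regions called in all libraries (right), with a line for each knockout (KO) and wild-type (WT) library. Broad regions show a trough in the middle and higher shares from 10 to 30% and from 70 to 90% in all 4 libraries. Their first and last bins hold the lowest shares. The other regions peak in the middle.

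The highest point of a broad region was mostly the same in all libraries. The 4 summits lay within 100 bp of each other in 168 of 281 regions (59.8%), against 75.8% of the other regions. They spread over more than 1000 bp in 34 (12.1%, against 1.13%), a spread that calls under 1000 bp cannot hold. The median spread was 58 bp, against 44 bp, and 38 bp without knockout replicate 1, since fewer summits span less. The summits of the knockout replicates lay a median of 7 bp apart and those of the wild-type replicates 2 bp. Across genotypes the median was 34 bp, but there the value of each region was the mean of 4 distances. A single displaced library raises that mean, so 34 bp is not comparable with the distances between replicates. The other regions gave 11, 6 and 23.5 bp by the same measures, with the same limit. Shifts of more than 1000 bp also occurred between replicates, in 16 broad regions in the knockout (5.69%, against 0.414% of the others) and 13 in wild type (4.63%, against 0.398%).

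In 6 broad regions the summits of each genotype lay within 100 bp of each other and the genotypes lay more than 500 bp apart (2.14%, against 0.384% of all 44000). This rule was set after the data were seen. Short calls have little room for such a distance, and the share among regions of like length was not computed. At chr8:18773493-18777165 both knockout summits were at position 18773974 and both wild-type summits at 18775817, 1843 bp away. At chr19:57185901-57189251 both knockout summits were at 57189094 and both wild-type summits at 57188026. At chr4:43381452-43384368 the knockout summits, at 43383481 and 43383435, lay 1428 bp from the wild-type summits at 43382029 and 43382031. In these 3 the summits of a genotype lay within 46 bp of each other. Wild-type replicate 2 stood apart in fold at chr4:43381452-43384368, with 9.65 against 5.73 in wild-type replicate 1, and the knockout libraries had 5.09 and 4.95.

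The other 3 had summits 732 to 752 bp apart. At chr11:78233909-78237299 the knockout summits were at 78235075 and 78235043 and the wild-type summits at 78234324 and 78234330. This region was also among the 6 with the lowest fold ratio. At chr11:88738423-88741271 they were at 88739656 in both knockout libraries and at 88740415 and 88740401 in wild type, and at chr12:54742036-54745240 at 54743355 in both knockout libraries and at 54742610 and 54742608 in wild type. The folds were 4.49 and 4.57 in the knockout against 5.67 and 5.97 in wild type at chr11:88738423-88741271, and 5.53 and 4.45 against 5.08 and 5.16 on chromosome 12, where they overlapped.

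Broad regions stood on all 21 chromosomes. Chromosome 11 had the most, 33 (11.7% of the broad regions, against 8.08% of all 44000), and chromosome 19 had 15 (5.34% against 2.72%). As a share of the regions of the chromosome this was 0.929% (Wilson 95% interval 0.662 to 1.30) on chromosome 11 and 1.25% (0.761 to 2.06) on chromosome 19. Chromosomes 2 and 6, which were rich in regions, had 13 each, 0.358% (0.209 to 0.612) and 0.406% (0.237 to 0.693). The interval of chromosome 2 lay below those of chromosomes 11 and 19, but the intervals cover counting error only and neighbouring regions are not independent.

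The regions were dispersed along the chromosomes. Neighbouring broad regions lay a median of 3.85 Mb apart, and 8 of 260 gaps were under 25 kb, the smallest 7047 bp on chromosome 2. Within 500 kb on either side a broad region had a median of 41 other regions called in all libraries, against 34 for the others, and the nearest of them was 6968 bp away against 8751 bp. Broad regions thus tended to lie in somewhat denser neighbourhoods. Regions called in both knockout libraries alone lay within 20 kb of 8 broad regions (2.85%, 1.45 to 5.52) and of 3.31% of the others. Regions called in both wild-type libraries alone lay within 20 kb of 50 (17.8%, 13.8 to 22.7) and of 14.2% of the others. Within 5 kb of a broad region, the knockout-only kind was found for 0 of 281 (Wilson 95% interval 0 to 1.35), against 0.592% of the others. The wild-type-only kind was found for 6 (2.14%, 0.982 to 4.58), against 3.41% of the others. For both kinds and at both distances the interval of the broad regions held the share of the others.

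A small group of broad regions lay at the very start of a chromosome sequence, where the assembly begins beside the centromere. Of the 281, 10 began in the first 4 Mb (3.56%, against 0.858% of the other regions), and 6 of these before 3.1 Mb (2.14%, 0.982 to 4.58, against 0.130%). The limit of 3.1 Mb was set after the data were seen. At chr10:3061390-3065252 the pileup was 1479 and 1292 reads in the knockout against 734 and 755 in wild type. At chr14:3050784-3053976 it was 2830 and 2508 against 1883 and 2037 reads, at chr11:3050362-3054568 357 and 340 against 265 and 270, and at chr3:3038352-3042436 907 and 759 against 756 and 679. These 4 had more reads in both knockout libraries before any scaling, whereas 64.8% of all 44000 regions had fewer and 3.36% more.

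The other 2 were the neighbours chr4:3064050-3069683, with 447 and 352 reads in the knockout against 435 and 427 in wild type, and chr4:3079875-3086924, with 756 and 664 against 718 and 669 reads. In these the genotypes overlapped. In scaled pileup all 6 were higher in the knockout by the mean of the libraries, with log2 ratios of 1.27, 0.82, 0.75, 0.59, 0.25 and 0.41, and a median of 0.67. This was not particular to broad calls, since the 57 other regions before 3.1 Mb had a median of 0.55, and 52 of them were above 0. The 4 broad regions between 3.1 and 4 Mb had ratios of −0.04 to 0.15. Beside these values stands the local background, which at chr10:3061390-3065252 was 30.3 and 23.9 times the genome-wide level in the knockout and 17.8 and 16.3 times in wild type. The part of the local background in these pileups was not tested.

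**Figure D5:**
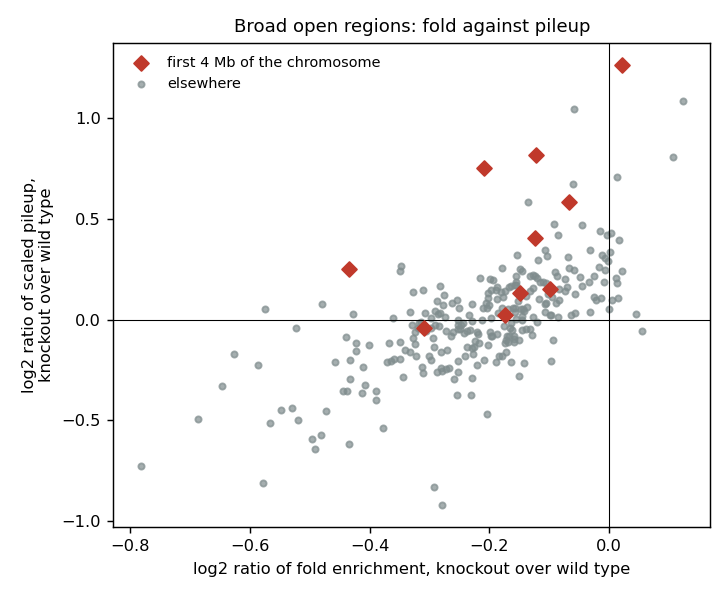
Log2 ratio of knockout over wild type of the scaled pileup against that of the fold enrichment for each of the 281 broad regions, with the 10 regions in the first 4 Mb of a chromosome as diamonds. Most points lie left of 0 in fold and around 0 in pileup; the diamonds reach up to 1.27 in pileup.

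Some broad regions were called in pieces. In 9 broad regions a library had a second call beside the one of 2500 bp or more, and 5 of these 9 began in the first 4 Mb. The 9 were 3.20% of the broad regions (Wilson 95% interval 1.69 to 5.97), close to the 2.87% of all 44000 regions that were in pieces in a library. The clearest difference by genotype was at chr9:122225864-122231038, which was in 2 pieces in both knockout libraries, with longest calls of 3187 and 2698 bp, against single calls of 5113 and 5096 bp in wild type. Its scaled pileup had a log2 ratio of −0.10, within the quartiles of all broad regions. At chr11:78052731-78057231 both knockout libraries and wild-type replicate 1 were in pieces, with 3108 and 3113 bp in the knockout against 3324 bp and, unbroken, 4501 bp in wild type.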

How the data were processed

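Peak lists in narrowPeak format, 1 per library, were used. Peaks were called with MACS2 on GRCm39, per the submitters' processing notes. For the aligner, tool versions, duplicate filter and Tn5 shift, the sources used here give nothing. The authors deposited for each call a display score (not used), the fold enrichment of the summit as a ratio to local background, and the −log10 p-value and q-value; a threshold on −log10 q of at least 5 was tried. Fold is (pileup + 1) divided by (background + 1) and p the Poisson tail of the same numbers, so both were recovered; 99.998% of the pileups in each list were within 0.05 of a whole number. The lowest background recovered, 17.2 and 17.4 reads for the knockout replicates and 14.7 and 15.1 reads for the wild-type replicates, was taken as genome-wide. Read totals were not used, so depth is known only from these pileups.

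A region's length is its longest call, and its signal that of the call with the lowest p-value. Named regions were the 12 longest, those with the most extreme fold ratio among regions whose genotypes did not overlap in fold (6 lower; 2 qualified as higher), the 5 on each side of the threshold and the 6 with the largest length difference in each direction. The members and these rules were chosen with earlier results of these data known. Gene tables of another build were not used, so lists of genes, markers, promoters and sequences were not analysed here. Counts and medians were set beside those of all regions called in all 4 libraries, since regions are not replicates. The scripts were tested on simulated lists with planted broad regions. Python 3.11.15, numpy 2.4.6, pandas 2.3.3, scipy 1.17.1, statsmodels 0.14.6 and matplotlib 3.10.9 were used.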

Additional observations from a re-analysis of the deposited data

Results flagged for a closer look

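Calls on unplaced and unlocalised sequences enter no comparison above. Calls of 2500 bp or more numbered 10 and 10 there in knockout replicates 1 and 2, against 6 and 7 in wild-type replicates 1 and 2, so both knockout libraries had more. As shares of all calls on these sequences, they were 7.30% (Wilson 95% interval 4.01 to 12.9) and 6.76% (3.71 to 12) in the knockout and 4.76% (2.20 to 10.0) and 5.98% (2.93 to 11.8) in wild type, with overlapping intervals.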

How the results depend on the processing

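With scaled pileup in place of fold, the median log2 ratio at broad regions reversed to 0.014, its difference from other regions was 0.0052 where fold gave 0.18, and 27.8% lay lower in both knockout libraries. Thresholds of 2000 and 3000 bp gave 1069 and 79 broad regions, 96 and 7 broad in the knockout alone, 196 and 19 in wild type alone, 32 and 5 with a library in pieces, and summits 68 and 53 bp apart (58 bp at 2500 bp); at 2000 bp, 77.3% had lower knockout folds. Leaving out each library gave 38 to 166 regions broad in the knockout alone, 96 to 123 in wild type alone, 72.5% to 94.0% with lower knockout folds, summits 38 to 48 bp apart and length ratios of −0.015 to −0.011. Fewer libraries loosen the rules behind these counts and the summit spread; otherwise the cause was not tested. Replicate numbers are shared, but no label ties them to a batch, and 2 pairs are too few to show a pairing: deviations of the same number correlated at 0.105 in fold and 0.346 in length over the broad regions, and at 0.147 and 0.0327 over all 44000. With the replicate block, each knockout fold was set only against the wild-type fold of the same replicate number, and was lower in both pairs in 87.2% of broad regions. This rule is looser than the one above and could only raise the share. The other blocked values moved by less than the replicate spread. A stricter q-value (−log10 q from 5 up), lists cut to the same length and merging of calls up to 200 bp apart moved no count by over 1.5 times and no median by over the replicate spread. Nor did the 500 longest calls of each library (263 broad regions), leaving out the 3 regions with 40 times the background, or keeping only regions above the genome-wide background (difference from other regions 0.13), all chosen after seeing the data. Several of these settings could hardly reach the broad regions. Their lowest −log10 q was 13.7 and their lowest rank percentile 26.8 in any list. The merging left every value as it was. All 281 lay above the genome-wide background, so that choice changed only the other regions. Windows around gene starts were not run. Read totals are unknown, and with 2 libraries a genotype the permutation test used here cannot pass a threshold of 0.05.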
